A study of Mus musculus with 8 samples.

Results

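Integrins are adhesion receptors, each built from an α and a β subunit that reach the cell surface only as a pair, so that a β subunit shared by several α subunits gives several receptors. The leukocyte integrins chosen here belong to 3 families, which take their names from the β2, β1 and β7 subunits. The β2 integrins bind ICAM proteins and complement-coated particles and are the main adhesion and phagocytic receptors of neutrophils, macrophages and dendritic cells. The β1 integrins bind fibronectin, laminin and VCAM-1. The β7 integrins hold cells to mucosal vessels and to epithelium. Most integrins stay in a bent, inactive state until talin and kindlin bind the tail of the β subunit. CD11b and CD11c, the α subunits encoded by *Itgam* and *Itgax*, are also the antigens by which myeloid cells and mouse dendritic cells are sorted.

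The 9 leukocyte integrin genes described here are *Itgam*, *Itgax*, *Itgal* and *Itgb2* of the β2 family, *Itgb1*, *Itga4*, *Itga5* and *Itga6* of the β1 family, and *Itgb7*. All probe sets whose annotation names 1 of these genes and no other were taken, which gave 18 of 22626 probe sets, and 9 of 12393 genes. They were measured in cultures grown from immature myeloid cells (IMCs), not in the freshly sorted cells. The IMCs were CD11b+Gr-1+ cells sorted from spleens of 4 male *Tff2-null* (Tff2-/-) mice on a C57BL/6 background, aged 16 weeks. The mice had been given 3% DSS for 5 days and then 14 days of plain water. DSS is a chemical that injures the colon. Each mouse gave cells for a culture with 5 nM Csf2 (GM-CSF, a growth factor of myeloid cells) plus 3 μM mouse recombinant Tff2 (rTFF2), and for a control culture with 5 nM Csf2 alone, both kept for 7 days, which gave n = 4 in each group. Neither group holds cells that make TFF2 of their own. The GM-CSF dose is the one in the sample labels, and the methods of the study give another. RNA of each culture went to its own Affymetrix mouse array. The authors turned the scans into log2 signals with GCRMA, a background correction and normalization for such arrays, and a signal can be compared between cultures but not between probe sets.

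A probe set was called changed at an adjusted p under 0.05 in limma, fitted over all 22626 probe sets with the mouse as a block. At that threshold 25.7% of all probe sets were called, 13.7% higher and 12.0% lower with rTFF2, so changes were common on these arrays. The background level was a log2 signal of 3.00, the 95th percentile of 41 genes of unrelated tissues. Array medians were 4.15 to 4.21 in rTFF2 cultures and 4.10 to 4.13 in control cultures. The log2 signal of *Actb* at its 3′ end minus that at its 5′ end, a gap that widens in degraded RNA, was 0.70 ± 0.05 in rTFF2 cultures and 0.53 ± 0.09 in control cultures (SD, n = 4, p = 0.029 in an exact two-sided permutation test that ignored the pairing, the lowest for 4 arrays against 4), and it was larger with rTFF2 in 4 of 4 mice. Paired by mouse, the exact test gave p = 0.125, which 4 mice cannot go under. With that gap as a covariate 1588 probe sets were called over the array, against 5811 without it, and of the integrin probe sets only *Itgb7* passed. As the gap moved with the treatment in every mouse, this fit can hardly separate the gap from the treatment. A call lost or kept in it therefore does not show whether RNA quality had a part. RNA was taken from whole cultures, so fewer cells of a type and less RNA per cell cannot be told apart.

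With rTFF2 the leukocyte integrins moved in both directions. *Itgax* and *Itgb7* fell to less than 0.5 of their signal in control cultures, while *Itgam*, *Itgal*, *Itgb1*, *Itga4* and *Itga6* rose by smaller amounts. *Itgb2* and *Itga5* did not pass the test. Of the 18 probe sets 9 were called, 7 higher and 2 lower, against 25.7% of all probe sets. By the brightest probe set of each gene, 5 of the 9 genes rose and 2 fell, against 27.7% of all genes called in either direction. Without the block 8 of the 18 were called, against 21.8% of all probe sets. The median change of the 18 was 0.25 on the log2 scale, and that of all probe sets was -0.02. Of the 18, 13 lay above background in at least 1 group and 5 in neither. The groups did not overlap for 8 of the 18, and for 25.5% of all probe sets.

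**Figure D1:**
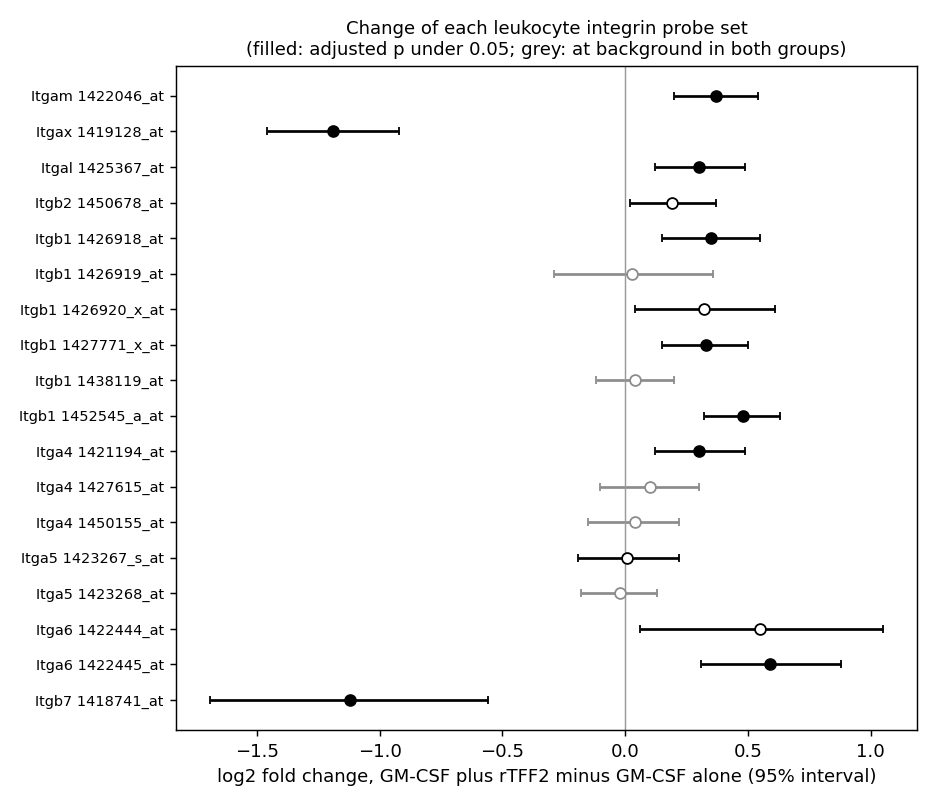
Log2 fold change (rTFF2 culture minus control culture) of the 18 leukocyte integrin probe sets, with the 95% interval from limma, filled where the adjusted p was under 0.05 and grey where both groups lay at background. *Itgax* (-1.19) and *Itgb7* (-1.12) lie far to the left, and the called rises lie between 0.30 and 0.59.

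Of the β2 family, the α subunit *Itgax* fell and the α subunit *Itgam* rose. *Itgax* encodes αX (CD11c), which with β2 forms complement receptor 4. Its log2 signals in the rTFF2 cultures of mice 1 to 4 were 9.49, 8.35, 9.26 and 9.78, against 10.37, 9.83, 10.66 and 10.79 in the control cultures of the same mice. Every rTFF2 culture lay under every control culture, and both cultures of mouse 2 were the lowest of their group. The means were 9.22 ± 0.62 with rTFF2 and 10.41 ± 0.42 with GM-CSF alone (SD, n = 4), a 2.28-fold lower signal (log2 fold change -1.19, standard error 0.11, adjusted p = 7.2e-04 from limma). Within mice the fall lay between 0.88 and 1.48, and the adjusted p stayed between 0.0019 and 0.0064 when any 1 mouse was left out. It was 0.022 without the block and 0.064 with the *Actb* gap as a covariate, where the log2 fold change was -0.95.

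*Itgam* encodes αM (CD11b), which with β2 forms Mac-1, the receptor for complement fragment iC3b and for ICAM-1, and the antigen on which the cells of both groups had been sorted. Its signals were 12.87, 12.56, 12.66 and 12.79 in the rTFF2 cultures of mice 1 to 4, against 12.54, 12.23, 12.14 and 12.49 in the control cultures. The lowest rTFF2 culture lay just above the highest control culture. The signal was 1.29-fold higher with rTFF2 (log2 fold change 0.37, standard error 0.07, adjusted p = 0.010 from limma), and the rise within a mouse lay between 0.30 and 0.52. *Itgam* passed without any 1 mouse (adjusted p from 0.026 to 0.046) and did not pass with the *Actb* covariate, where the log2 fold change was 0.42 (adjusted p = 0.20).

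*Itgax* and *Itgam* are both on chromosome 7 and are read from the same strand. The 250 bases before the annotated start of each gene are shown because these genes moved in opposite directions, with those of *Itgb7*, which fell like *Itgax* (RefSeq, build GRCm38.p6, 5′ to 3′ on the strand of the gene). Capitals mark each match, on either strand, to GAGGAA (the core of PU.1 sites), TGACTCA (the AP-1 site) or GGGCGG (the GC box), and the matches do not overlap.
Itgax, chr7:128129300-128129549, plus strand: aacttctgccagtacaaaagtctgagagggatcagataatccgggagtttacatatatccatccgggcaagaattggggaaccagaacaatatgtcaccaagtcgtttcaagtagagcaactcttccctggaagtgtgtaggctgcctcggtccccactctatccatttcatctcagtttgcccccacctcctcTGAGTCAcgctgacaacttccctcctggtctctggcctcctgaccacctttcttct
Itgam, chr7:128062390-128062639, plus strand: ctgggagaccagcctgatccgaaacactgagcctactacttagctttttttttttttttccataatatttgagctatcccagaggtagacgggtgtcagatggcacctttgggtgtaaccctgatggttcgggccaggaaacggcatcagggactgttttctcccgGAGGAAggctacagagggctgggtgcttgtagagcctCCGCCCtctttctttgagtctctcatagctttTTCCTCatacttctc
Itgb7, chr15:102231936-102232185, minus strand: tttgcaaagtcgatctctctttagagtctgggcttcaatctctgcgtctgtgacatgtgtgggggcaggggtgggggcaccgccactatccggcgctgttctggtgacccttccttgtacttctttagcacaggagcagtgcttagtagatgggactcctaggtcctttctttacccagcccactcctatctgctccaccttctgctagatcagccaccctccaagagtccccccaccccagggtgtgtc

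The *Itgam* window held GAGGAA at 84 to 79 bases before the start and, on the opposite strand, at 15 to 10 bases before it, and GGGCGG on the opposite strand at 47 to 42 bases before it. The *Itgax* window held TGACTCA on the opposite strand at 56 to 50 bases before the start, and the *Itgb7* window held none of these letters. Of all 32851 RefSeq promoter windows of this length, 23.3% held GAGGAA, 4.46% TGACTCA and 32.7% GGGCGG. The promoter table had entries for 6 of the 9 genes, not for *Itgal*, *Itgb2* or *Itga6*.

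*Itgb2* encodes β2 (CD18), the partner that αM, αX and αL share and without which none of them reaches the surface. Its signals were 12.97, 12.85, 12.86 and 12.93 in the rTFF2 cultures of mice 1 to 4, against 12.66, 12.59, 12.78 and 12.81 in the control cultures. The rTFF2 cultures were higher in 4 of 4 mice and the groups did not overlap, but the difference was small, at 0.19 on the log2 scale, with a 95% interval from 0.02 to 0.37. It did not pass after adjustment (adjusted p = 0.10 from limma). With a trended and robust variance prior it did (0.023).

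*Itgal* encodes αL (CD11a), which with β2 forms LFA-1, the ICAM receptor of lymphocytes and of many myeloid cells. Its probe set was dim, at 3.87, 3.95, 3.83 and 4.16 in the rTFF2 cultures of mice 1 to 4, against 3.57, 3.63, 3.70 and 3.69 in the control cultures, and all 8 arrays were above background. It was 1.23-fold higher with rTFF2 (log2 fold change 0.30, standard error 0.08, adjusted p = 0.029 from limma), and each of the 4 mice showed the rise. It did not pass without mouse 1 (0.094), mouse 2 (0.074) or mouse 4 (0.11), nor when 32 was added to each linear signal to damp changes near background (0.061, log2 fold change 0.09).

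Set beside its shared partner in each mouse, *Itgax* stood apart from the other β2 subunits. The change of *Itgax* minus that of *Itgb2* was -1.38 ± 0.28 on the log2 scale (SD, n = 4 mice) and lay between -1.74 and -1.13. For *Itgam* minus *Itgb2* it was 0.18 ± 0.19, and for *Itgal* minus *Itgb2* 0.11 ± 0.16. The change of *Itgax* minus that of *Itgam* was -1.56 ± 0.35, and negative in 4 of 4 mice. These are descriptions of unequal change, without a test.

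**Figure D2:**
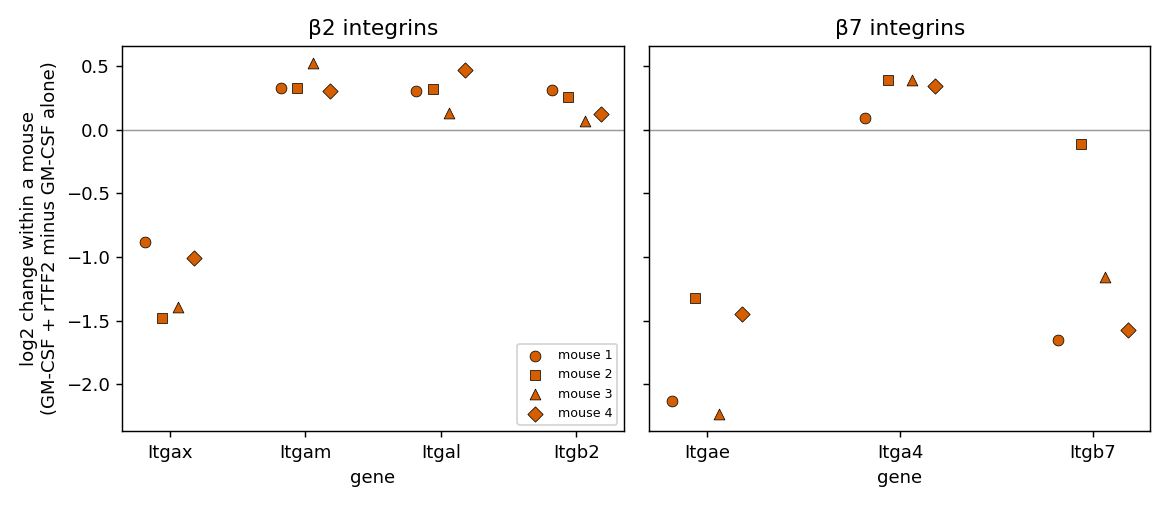
Log2 change within each mouse (rTFF2 culture minus control culture) of the β2 subunits on the left and of *Itgb7* with its α partners on the right, 1 symbol per mouse. *Itgax* and *Itgae* lie under 0 in every mouse and the other α subunits shown lie above 0, while the *Itgb7* change of mouse 2 (-0.11) lies near 0.

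The β7 subunit fell, and so did *Itgae*, which encodes the αE subunit (CD103) that pairs with β7 alone. αEβ7 is carried by T cells of the epithelium and by subsets of dendritic cells and binds E-cadherin. *Itgb7* had signals of 5.11, 5.85, 5.90 and 5.80 in the rTFF2 cultures of mice 1 to 4, against 6.76, 5.96, 7.06 and 7.37 in the control cultures. The control culture of mouse 2 was already nearly as low as the rTFF2 cultures, so its fall was 0.11 on the log2 scale, while the other mice fell by 1.16 to 1.65. The means were 5.66 ± 0.37 with rTFF2 and 6.79 ± 0.61 with GM-CSF alone (SD, n = 4), a 2.18-fold lower signal (log2 fold change -1.12, standard error 0.24, adjusted p = 0.014 from limma).

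The *Itgb7* call depended on which mice were fitted. Without mouse 2 the log2 fold change was -1.46 (adjusted p = 7.2e-04), and without mouse 1, 3 or 4 it was -0.95, -1.11 or -0.98 and did not pass (0.058, 0.061 and 0.063). It did not pass with the offset of 32 either (0.082, log2 fold change -0.79). With the *Actb* covariate the log2 fold change was -2.10 and passed (0.014).

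*Itgae* is outside the 9 genes and comes from the list of the other integrin subunits. It had signals of 3.45, 3.20, 3.41 and 3.92 in the rTFF2 cultures of mice 1 to 4, against 5.58, 4.52, 5.64 and 5.37 in the control cultures. The rTFF2 cultures stood just above background and did not overlap with the control cultures. The signal was 3.44-fold lower with rTFF2 (log2 fold change -1.78, standard error 0.16, adjusted p = 6.3e-04 from limma). It passed when any 1 mouse was left out and with the *Actb* covariate (0.019). Its fall was larger than that of *Itgb7* in 3 of 4 mice, and the difference between these changes was -0.66 ± 0.61 (SD, n = 4). *Cdh1*, which encodes E-cadherin, fell 2.26-fold (log2 fold change -1.17, adjusted p = 0.0024 from limma), at 10.83, 11.61, 11.37 and 11.34 in rTFF2 cultures against 12.66, 12.50, 12.41 and 12.28 in control cultures.

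Markers of several cell types also differed between the groups. Of 11 dendritic cell markers, a list without *Itgax* or *Itgae*, 10 fell and none rose, while over all genes 14.5% rose and 13.3% fell. Their summed linear signal was 8064 to 11598 in rTFF2 cultures and 28837 to 36964 in control cultures. Such a sum follows the brightest genes of a list, so it is not a measure of cell number. Here these were the genes of MHC class II antigen presentation, with log2 means of 12.46 to 13.33 in control cultures. *Zbtb46*, a transcription factor of dendritic cells, had the log2 fold change -3.42. *Flt3* and *Cd209a*, receptors of dendritic cells, lay at background in both groups, and only *Flt3* of the list was not called. All 12 measured neutrophil markers rose, with a summed signal of 90407 to 104745 in rTFF2 cultures and 38136 to 69315 in control cultures, and *Ly6g*, which encodes a Gr-1 antigen, was not matched to a probe set. Of 8 macrophage markers 4 rose and none fell, with sums of 41565 to 47788 in rTFF2 cultures and 30213 to 39408 in control cultures, and *Adgre1*, the F4/80 antigen of macrophages, had a change of -0.02. Of 12 T and NK cell markers 1 rose and 2 fell, and 8 lay at background in both groups, among them *Cd3e* and *Cd3d*, with sums of 1089 to 1178 in rTFF2 cultures and 1098 to 1175 in control cultures. The part of these cell types in the integrin changes was not tested.

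**Figure D3:**
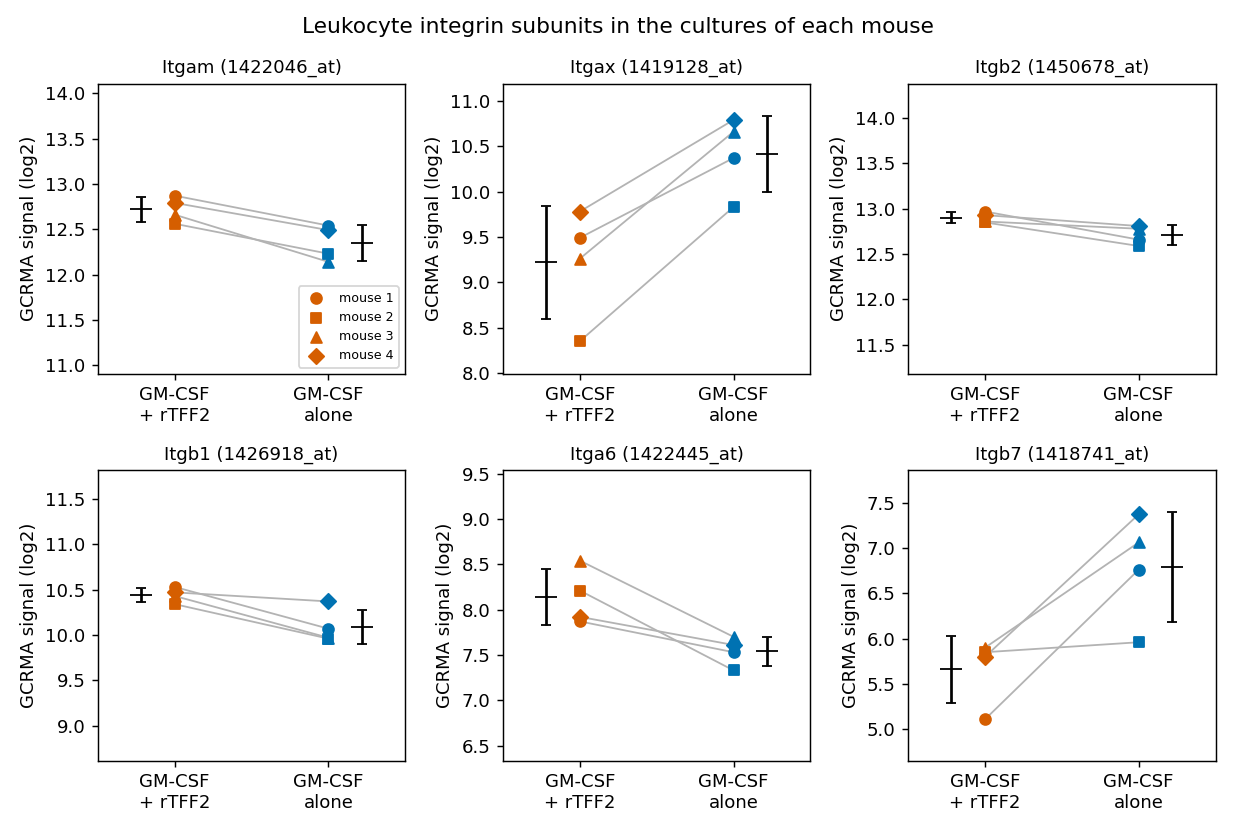
GCRMA signal (log2) of 6 leukocyte integrin subunits in each culture, where lines connect cultures that share a mouse, black bars give mean and SD (n = 4), and axes have equal span and do not start at 0. *Itgax* and *Itgb7* lie lower and *Itgam*, *Itgb1* and *Itga6* higher with rTFF2 in each mouse, and *Itgb2* differs by 0.19.

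In the β1 family the shared β subunit and the laminin-binding α6 rose. *Itgb1* encodes β1 (CD29), the partner of α4, α5 and α6, and has 6 probe sets, of which 3 were called, all higher. Probe set 1426918_at had signals of 10.53, 10.34, 10.43 and 10.47 in the rTFF2 cultures of mice 1 to 4, against 10.07, 9.96, 9.97 and 10.37 in the control cultures. Only the control culture of mouse 4 reached the range of the rTFF2 cultures. Its log2 fold change was 0.35 (standard error 0.08, adjusted p = 0.022 from limma). Probe set 1452545_a_at, which reads several transcripts of the gene, had 9.66, 9.27, 9.28 and 9.60 with rTFF2, against 9.12, 8.86, 8.83 and 9.11 with GM-CSF alone, and the groups did not overlap. It gave a 1.39-fold higher signal (log2 fold change 0.48, standard error 0.07, adjusted p = 0.0028), with rises of 0.41 to 0.54 within mice.

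The third called probe set, 1427771_x_at, gave 0.33 (adjusted p = 0.017), and the suffix means that its probes may also bind other transcripts. Probe set 1452545_a_at passed without any 1 mouse (adjusted p up to 0.017). The other called ones did not: 1426918_at failed without mouse 1 (0.093), mouse 2 (0.061) or mouse 3 (0.091), and 1427771_x_at without mouse 1 (0.079) or mouse 3 (0.066). None of the 3 passed with the *Actb* covariate (adjusted p from 0.095 to 0.48), where the log2 fold changes were 0.26 for 1426918_at, 0.52 for 1452545_a_at and 0.30 for 1427771_x_at. The remaining probe sets of *Itgb1* lay at or near background, with changes between 0.03 and 0.32, and 1426920_x_at, with an adjusted p of 0.097, passed without mouse 4 (0.024).

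*Itga6* encodes α6 (CD49f), which with β1 forms a laminin receptor. Probe set 1422445_at had signals of 7.87, 8.21, 8.54 and 7.92 in the rTFF2 cultures of mice 1 to 4, against 7.53, 7.33, 7.70 and 7.61 in the control cultures. The groups did not overlap, and mice 2 and 3 rose by 0.88 and 0.84 while mice 1 and 4 rose by 0.34 and 0.31. The signal was 1.51-fold higher with rTFF2 (log2 fold change 0.59, standard error 0.12, adjusted p = 0.012 from limma), which did not pass without mouse 3 (0.055), with the offset of 32 (0.058) or with the *Actb* covariate (0.50, log2 fold change 0.32). The second probe set, 1422444_at, gave a similar size, 0.55, with a wide interval from 0.06 to 1.05, and did not pass (adjusted p = 0.10). There mouse 1 went the other way (-0.28), and without it the log2 fold change was 0.83 (adjusted p = 0.011).

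*Itga4* encodes α4 (CD49d), which with β1 forms VLA-4, the receptor for VCAM-1, and with β7 the receptor for the gut vessel ligand MAdCAM-1. Its brightest probe set, 1421194_at, stood close to background, at 3.31, 3.91, 3.59 and 3.32 in the rTFF2 cultures of mice 1 to 4 and 3.21, 3.52, 3.20 and 2.98 in the control cultures. The groups overlapped, and mouse 2 had the highest value in each. The log2 fold change was 0.30 (standard error 0.08, adjusted p = 0.030 from limma), with a rise in each of the 4 mice, a call that rested on the pairing, since without the block the adjusted p was 0.20. It did not pass without mouse 2 (0.087), mouse 3 (0.11) or mouse 4 (0.096), after median centring (0.051) or with the offset of 32 (0.071, log2 fold change 0.08). Its other probe sets lay at background in both groups. Of 9 basophil and mast cell markers measured 6 rose and none fell, against 14.5% and 13.3% of all genes. Their summed signal was 3911 to 7467 in rTFF2 cultures and 120 to 360 in control cultures. *Cma1*, *Tpsb2* and *Mcpt4* of that list lay at background. Of 5 eosinophil markers 3 rose and 1 fell, against the same shares of all genes. Their summed signal was 4410 to 10881 in rTFF2 cultures and 805 to 3288 in control cultures. The part of these cell types in the *Itga4* value was not tested.

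*Itga5* encodes α5 (CD49e), which with β1 forms the main fibronectin receptor. Probe set 1423267_s_at stood at 3.32, 3.20, 3.29 and 3.53 in the rTFF2 cultures of mice 1 to 4 and at 3.35, 3.31, 3.38 and 3.25 in the control cultures. The difference was 0.01, with a 95% interval from -0.19 to 0.22 (adjusted p = 0.94 from limma), and the signal was near background. The other probe set lay at background. *Fn1*, which encodes fibronectin and was chosen after its values were seen, varied far more between mice than between groups, with 10.23, 8.99, 11.97 and 12.17 in rTFF2 cultures and 10.54, 6.51, 11.53 and 11.84 in control cultures (adjusted p = 0.23).

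Across the 8 cultures, the genes whose pattern was most like a member's were read off as Pearson correlations among 7908 other genes above background. This was done for called members whose log2 signal ranged over at least 1 across the arrays. The cultures share the treatment and the mouse, so these correlations are descriptions. For *Itgax* they were *Polr2e* (r = 0.977), *Tpm4* (0.966) and *Mrpl17* (0.966). For *Itgb7* they were *Fahd1* (0.994), *Klk1b1* (0.990) and *Mrpl19* (0.985), and for *Itga6* *Akt2* (0.964), *Alox5ap* (0.962) and *Rasal3* (0.959). Of these genes *Mrpl19*, *Alox5ap* and *Rasal3* were not called themselves, with log2 fold changes of -0.23, 0.10 and 0.12.

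The other integrin subunits moved both ways too. Of 17, 12 were matched to a probe set, of which 3 rose and 3 fell, against 14.5% and 13.3% of all genes, and 6 lay above background in at least 1 group. Besides *Itgae*, the falls were *Itga3* (-0.38, adjusted p = 0.042) and *Itga2* (-0.45, adjusted p = 0.0083), which encode α subunits that pair with β1. *Itga2* lay at background in both groups. *Itga3* was near it, at 3.08 with rTFF2 and 3.45 with GM-CSF alone, and did not pass without the block (0.067) or without mouse 1, 2 or 4 (0.079, 0.11 and 0.13). The median change of the 12 was 0.00, and that of all genes was -0.03.

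*Itga2b*, which encodes the αIIb subunit of platelets, rose 1.98-fold. It stood between 4.60 and 4.87 in rTFF2 cultures, against 3.51 to 4.00 in control cultures, with no overlap (log2 fold change 0.99, standard error 0.12, adjusted p = 0.0017 from limma). It did not pass with the *Actb* covariate (0.067). *Itgb3*, which encodes the β3 subunit and was named after its values were seen, lay at background in both groups (2.22 with rTFF2 and 2.21 with GM-CSF alone). Of 8 markers of erythroid cells and platelets 1 rose, the platelet chemokine gene *Ppbp* (2.76 on the log2 scale), and 7 lay at background in both groups, *Gp9* and *Gp5* of platelets among them.

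*Itgav* and *Itgb5* encode αV and β5, which together form a receptor for vitronectin that some phagocytes use to take up dying cells. In its brightest probe set *Itgav* stood between 10.75 and 11.28 in rTFF2 cultures and between 10.36 and 10.92 in control cultures. Its log2 fold change was 0.36 (adjusted p = 0.027 from limma) with a rise in each of the 4 mice. In its brightest probe set, 1456195_x_at, *Itgb5* stood at 8.42, 8.64, 8.76 and 8.67 in rTFF2 cultures and 7.79, 7.68, 8.32 and 8.48 in control cultures. It rose by 0.55 (adjusted p = 0.017). In these probe sets the groups overlapped and neither gene passed without the block (0.13 for *Itgav* and 0.052 for *Itgb5*), *Itgav* did not pass without mouse 1, 2 or 3 (0.10, 0.071 and 0.086), and *Itgb5* not without mouse 1 (0.067). The other 3 probe sets of *Itgb5* rose as well, by 0.61 to 0.89, and of the other probe sets of *Itgav* 1421198_at rose (0.43) and 1432296_a_at did not pass (0.17). Without overlap between the groups, *Itgb5* 1417534_at and 1456133_x_at and *Itgav* 1421198_at also passed without the block (0.0047, 0.030 and 0.018). The suffix of *Itgb5* 1456195_x_at and 1456133_x_at means that their probes may also bind other transcripts. Probe set 1417534_at, which rose by 0.74, lacks that suffix.

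Of the proteins that switch integrins on from inside, talin and kindlin, which bind the β tail, did not pass the test, while several signalling partners rose. *Tln1*, which encodes talin, had a change of 0.07 (95% interval -0.11 to 0.24, adjusted p = 0.55), though its dimmer probe set 1436042_at rose by 0.34 (adjusted p = 0.045). *Fermt3*, the kindlin of blood cells, had a change of 0.02 (95% interval -0.16 to 0.20, adjusted p = 0.89). Of 37 genes on that list 31 were matched, of which 9 rose and none fell, against 14.5% and 13.3% of all genes, with a median change of 0.15.

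The largest of these rises was that of *Rasgrp2*, which encodes CalDAG-GEFI, the exchange factor that loads Rap1 and so brings talin to integrins. It stood at 6.41, 6.60, 6.14 and 6.78 in the rTFF2 cultures of mice 1 to 4, against 4.85, 5.38, 4.43 and 4.46 in the control cultures. The groups were far apart, and the signal was 3.25-fold higher (log2 fold change 1.70, standard error 0.16, adjusted p = 7.3e-04 from limma), a call that held with the *Actb* covariate (0.0041). Its other probe sets gave 1.08 and 1.38. *Fyb*, the adaptor ADAP, rose by 1.17 (adjusted p = 0.0011), *Syk*, the tyrosine kinase that acts below β2 integrins, by 0.71 (0.0011), *Dab2*, an adaptor that binds β tails, by 0.66 (0.0030), *Pxn*, which encodes paxillin, by 0.49 (0.0027) and *Cyth1*, which encodes cytohesin-1, a binder of the β2 tail, by 0.44 (0.0047). Each of them was higher in 4 of 4 mice with no overlap between the groups, and passed when any 1 mouse was left out. With the *Actb* covariate *Syk* passed (0.019), while *Fyb* (0.096), *Dab2* (0.093), *Pxn* (0.13) and *Cyth1* (0.083) did not, each in its brightest probe set. Probe sets 1423805_at and 1430604_a_at of *Dab2* rose more, by 1.21 and 1.06, and passed with the covariate (0.042 and 0.028). The dimmer probe sets of *Syk* passed with it too, and those of *Pxn* and *Cyth1* did not. Of the other 3 called genes, named after their values were seen, *Tyrobp* (0.35) and *Fcer1g* (0.32) encode the ITAM adaptors through which β2 integrins signal. *Vav1* (0.41) did not pass without the block (0.091). None of these 3 passed with the *Actb* covariate (0.34, 0.28 and 0.15).

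Of 21 ligand genes 19 were matched, of which *Thbs1* and *Icam2* rose, *Cdh1* fell and 10 lay at background in both groups, against 27.7% of all genes called in either direction. *Thbs1*, which encodes thrombospondin-1, rose by 0.51 (adjusted p = 0.0024 from limma) and *Icam2*, which encodes a ligand of LFA-1, by 0.57 (adjusted p = 0.0050). *Icam1*, the ligand of LFA-1 and Mac-1, had a change of 0.21 (95% interval -0.05 to 0.46, adjusted p = 0.22), and passed without mouse 2 (0.031), whose change of -0.19 went against that of the other mice.

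**Figure D4:**
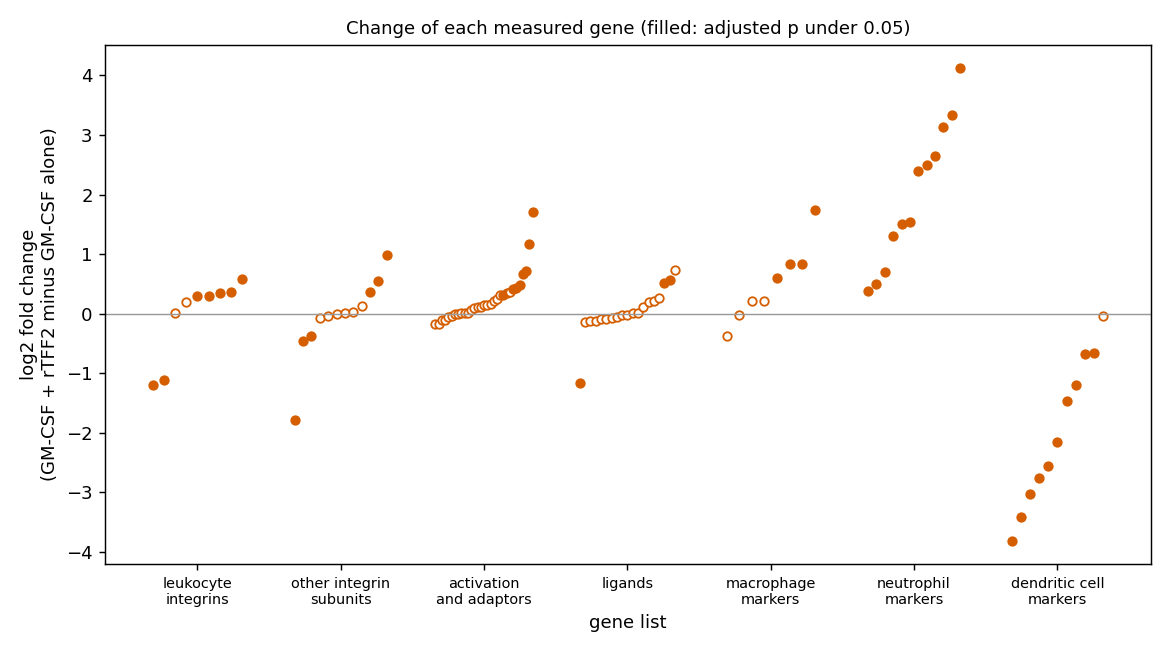
Log2 fold change (rTFF2 culture minus control culture) of each measured gene of 7 lists, 1 point per gene in order of size, filled for adjusted p under 0.05. The leukocyte integrins hold 2 low points, *Itgax* (-1.19) and *Itgb7* (-1.12), and the other integrin subunits 1, *Itgae* (-1.78).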

How the data were processed

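Groups and mouse numbers came from the sample labels, which give the cultures of a mouse the same number, and by the study's methods the cells of a mouse were divided between its cultures. The deposited log2 signals were made by the authors with GCRMA, for which the submitters' processing notes list affy 1.36.0 and GCRMA 2.30.0. GCRMA normalizes the probes of all arrays together, yet the array medians of the deposited signals still differed between the groups, and dim signals depend on its background correction. Nothing was renormalized for the main results.

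After 64 control probe sets were left out, 22626 were fitted with limma 3.58.1 under R 4.3.3 (lmFit, eBayes, mouse as a block, two-sided), and p-values were adjusted over the whole array by Benjamini-Hochberg. The study's methods use limma without stating a pairing. Deviations from the group means of 13690 probe sets above background gave same-mouse correlations of 0.05 (mouse 1), 0.53 (mouse 2), 0.31 (mouse 3) and 0.39 (mouse 4), and correlations of -0.54 to 0.33 between different mice, so the pairing rests on the labels and methods. Symbols came from the platform annotation, with 1 symbol for 20380 probe sets, several for 691 and none for 1555. Members were described by every probe set and other genes by the one with the highest mean.

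Named genes were all members, each called gene of the other integrin subunits, up to 6 called genes of each other integrin list by adjusted p, *Tln1*, *Fermt3* and *Icam1*, and up to 3 per marker list. The members and lists were chosen with earlier results of these data known. The arrays' number limits the precision, and raw scans were not analysed here. In the marker lists not given in the report, 1 of 7 B cell genes rose, and of 10 stromal and endothelial genes 1 rose and 2 fell.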

Additional observations from a re-analysis of the deposited data

Results flagged for a closer look

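The rTFF2 culture of mouse 1 stood apart in *Itgb7*, at 5.11 against 5.85, 5.90 and 5.80 in the rTFF2 cultures of mice 2 to 4. Its gap to the nearest culture was 0.881 of the range of the group, past the 95% critical value of Dixon's test for 4 samples. It was 1 of 36 groups of 4 examined, and chance alone gives about 1 in 20. Without mouse 1 the log2 fold change of *Itgb7* was -0.95 (adjusted p = 0.058 from limma).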

How the results depend on the processing

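Of the 9 called integrin probe sets all kept their direction in 13 alternatives, and 79 of 117 values also passed the threshold. Some alternatives leave the log2 fold change as in the main fit, so direction could not turn there. These were the fits without the block, with dim probe sets left out and with the trended prior, and the test against a 2-fold change. The count of called integrin probe sets was 8 without the replicate block, where *Itga4* was lost, 5 with an offset of 32 and 1 with the *Actb* covariate together with the block. It was 4 to 7 when 1 mouse was left out (4 without mouse 3), 2 at an adjusted p under 0.01 and 0 in a test against a 2-fold change (limma's treat, also 0 at an unadjusted p under 0.05), in which 173 of all probe sets passed. Over all probe sets 4927 passed without the block, 1588 with the *Actb* covariate, 2906 at 0.01, and 3609 to 5006 without 1 mouse. After median centring 42.3% of called probe sets were higher, against 53.3% before. Of the genes of the other 3 integrin lists, each read by its brightest probe set, 18 were called. There were 14 without the block and 3 with the *Actb* covariate, namely *Itgae*, *Rasgrp2* and *Syk*. The *Actb* gap differed by 0.12 to 0.20 between the groups without 1 mouse, where 3 cultures against 3 cannot give an exact p under 0.10. Signs turned only in uncalled probe sets. They were *Itgb1* 1426919_at (-0.01 after median centring, -0.11 with the *Actb* covariate, -0.11 to 0.19 without 1 mouse) and 1438119_at (-0.01 after centring), *Itga4* 1450155_at (-0.01 after centring, -0.18 with the covariate, -0.03 to 0.08 without 1 mouse), and *Itga5* 1423267_s_at (-0.01 after another quantile normalization, -0.04 after centring, -0.08 to 0.05 without 1 mouse) and 1423268_at (0.03 after quantile normalization and 0.03 with the covariate). The cause was not tested. The signals of *Itgal*, *Itga4* and *Itga5* lay close to background.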
